A study of Mus musculus with 8 samples.

Results

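Genes of DNA replication and of mitosis were followed in the livers of 4 control and 4 Smo-KO mice. The 39 genes, chosen by name from 25239 counted gene symbols, fall into 14 genes of S phase, when DNA is copied, and 25 genes of mitosis, when the copied chromosomes are parted. All 39 were found in every count list, and all 39 passed the filter on low counts that left 12977 genes for testing. In Smo-KO livers 24 of the 25 mitotic genes had a negative log2 fold change, and 13 of the 14 S-phase genes had a positive one, while 50.1% of all tested genes had a negative one. Genes of a class were measured in the same livers, so these counts are not independent. The median log2 fold change was 0.095 for S-phase genes and -0.21 for mitotic genes. The pooled SD of the class median between livers of a group was 0.19 and 0.26. Control 3 was the highest liver for 19 of the mitotic genes, and without it their median was -0.099. Ccnb2, Cdc20 and Cdca3 were at 55.4%, 53.8% and 57.7% of their control means. No gene of either class, and none of the 12977 genes tested, had an adjusted p under 0.05 by edgeR, while DESeq2 called 167 genes, Ccnb2 among them.

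All 8 mice were adult male Smo fl/fl mice, in which both copies of Smo carry loxP sites, and all ate for 6 weeks the CDA-HFD, a choline-deficient and amino acid-restricted diet rich in fat on which mice develop steatohepatitis. For the last 1 week they also carried a viral vector, given through the tail vein. It was AAV8-TBG-Luciferase in control mice and AAV8-TBG-Cre in Smo-KO mice, with the Cre recombinase that removes the floxed part of Smo under TBG, a promoter used in hepatocytes. The labels call the control genotype WT, although these mice carry the floxed alleles too, and no group without a vector or without the diet is part of the comparison. Recombination was aimed at hepatocytes, while the RNA came from all cells of the liver, so a lower level of a transcript from fewer cells of a type and from less RNA per cell cannot be told apart. The libraries held between 8203299 (Smo-KO 3) and 9999732 (control 4) reads on genes. Levels are given as CPM, the counts of a gene scaled to the reads on all genes of its library and adjusted by TMM, on which 3 reads correspond to between 0.296 and 0.365 CPM.

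Cells that enter the cycle first switch on a program under E2F transcription factors, which are held back by the Rb family until cyclin D and cyclin E kinases phosphorylate it; its products license the replication origins, supply nucleotides and copy the DNA. The mitotic program follows later, in G2 phase, and is driven by the MuvB complex with B-Myb and FoxM1 through a short promoter element, the cell cycle genes homology region (CHR), together with NF-Y at CCAAT boxes. Most hepatocytes of an adult liver are out of the cycle, and injury brings hepatocytes and other liver cells into it. The classes are therefore described apart.

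Promoter motifs were spread unevenly over the 2 classes. RefSeq promoters (GRCm38.p6, 250 bases before to 50 bases after the start) were at hand for 33 of the 39 genes and were searched on both strands. The E2F motif (TTTCCCGC or TTTGGCGC or TTTCGCGC) was found at 4 of 12 S-phase genes (33.3%), namely Mcm3, Mcm5, Mcm6 and Mcm7, and at 1 of 21 mitotic genes (4.8%), Cdk1, against 3.98% of the tested genes with a promoter. The CHR (TTTGAA or TTCGAA) was found at 17 of 21 mitotic genes (81.0%) and 2 of 12 S-phase genes (16.7%), against 16.71%. A CCAAT box stood at 19 of 21 mitotic genes (90.5%) and 8 of 12 S-phase genes (66.7%), against 42.59%. Both motifs stood at 17 of 21 mitotic genes (81.0%) and 2 of 12 S-phase genes (16.7%), against 6.83%. Among genes of the same programs outside the 39, E2F motifs stood at 17 of 41 replication genes (41.5%) and the CHR at 35 of 48 mitotic genes (72.9%). Over all 27025 genes of the promoter table the shares were 2.12% for E2F, 21.66% for the CHR and 41.06% for CCAAT. Matches of different motifs may overlap and each was counted, and a match is a stretch of letters, not a site shown to be bound.

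**Figure D1:**
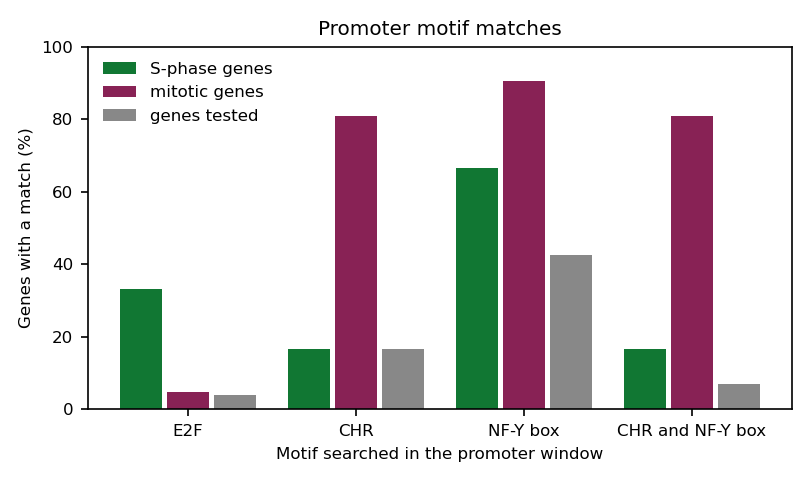
Percent of genes whose RefSeq promoter window of 300 bases holds each motif, for S-phase genes (green, 12 with a promoter), mitotic genes (purple, 21) and all tested genes with a promoter (grey); the NF-Y box is the CCAAT motif. The CHR bar of the mitotic genes stands at 81.0%, against 16.7% for S-phase genes.

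Sequences that show the layout of the 2 classes are given 5′ to 3′ up to the RefSeq start, with motif matches in capitals. Those of Ube2c and Cdc20 end earlier, with the last motif match before the start. Mcm7 had the most matches among S-phase genes (6), followed by Mcm3, Mcm5 and Mcm6 (5 each), of which Mcm3 was taken as the one listed first. The stretch before the RefSeq start of Mcm7 lies in annotated exons and is not shown. That of Mcm3 lies at chr1:20820313-20820512 on the minus strand, and its capitals mark 3 CCAAT boxes, while its E2F matches lie after the start. Mcm6, at chr1:128359706-128359905 on the minus strand, was added after values were seen because its 3 E2F matches lie before the start, 2 of them overlapping. Its other capitals mark 2 CCAAT boxes.
Mcm3: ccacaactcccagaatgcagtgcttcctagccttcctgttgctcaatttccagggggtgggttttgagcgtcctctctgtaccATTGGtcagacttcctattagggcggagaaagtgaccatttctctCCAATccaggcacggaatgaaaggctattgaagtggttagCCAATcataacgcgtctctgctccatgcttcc
Mcm6: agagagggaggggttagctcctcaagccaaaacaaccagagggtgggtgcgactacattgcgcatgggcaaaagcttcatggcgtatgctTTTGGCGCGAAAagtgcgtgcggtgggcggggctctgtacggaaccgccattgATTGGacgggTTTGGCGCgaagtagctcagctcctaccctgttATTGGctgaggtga

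Among the mitotic genes Top2a and Ube2c had the most matches. The stretch of Top2a lies at chr11:99024190-99024389 on the minus strand, where capitals mark 4 CHR matches and 5 CCAAT boxes. That of Ube2c lies at chr2:164769729-164769905 on the plus strand, ends with its single CHR match in the first exon bases that GENCODE annotates, and holds 5 CCAAT boxes, 2 of them overlapping. Ccnb2 (chr9:70421555-70421754 on the minus strand) and Cdc20 (chr4:118437347-118437543 on the minus strand) were added after values were seen, as genes among those with the lowest unadjusted p. In Ccnb2 capitals mark 1 CHR match and 3 CCAAT boxes, and in Cdc20 1 CHR match and 2 CCAAT boxes, the last one in annotated exon bases.
Top2a: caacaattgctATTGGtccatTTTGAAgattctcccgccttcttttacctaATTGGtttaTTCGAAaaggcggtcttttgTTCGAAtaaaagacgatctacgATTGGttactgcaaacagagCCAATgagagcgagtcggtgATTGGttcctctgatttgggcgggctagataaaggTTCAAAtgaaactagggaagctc
Ube2c: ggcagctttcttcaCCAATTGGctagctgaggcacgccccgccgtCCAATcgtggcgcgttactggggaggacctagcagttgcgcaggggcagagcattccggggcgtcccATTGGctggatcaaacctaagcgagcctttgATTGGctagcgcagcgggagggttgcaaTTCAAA
Ccnb2: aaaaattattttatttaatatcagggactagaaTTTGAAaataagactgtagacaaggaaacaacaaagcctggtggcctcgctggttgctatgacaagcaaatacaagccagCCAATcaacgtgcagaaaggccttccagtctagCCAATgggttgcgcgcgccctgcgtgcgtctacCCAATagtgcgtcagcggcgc
Cdc20: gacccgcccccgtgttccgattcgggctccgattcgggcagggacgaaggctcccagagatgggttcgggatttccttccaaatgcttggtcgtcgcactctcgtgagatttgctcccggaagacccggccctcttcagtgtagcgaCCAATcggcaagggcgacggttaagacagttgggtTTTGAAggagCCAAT

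Smo itself, the receptor-like signal transducer of the Hedgehog pathway, was counted in every liver. Its level was 8.16, 8.48, 8.73 and 8.20 CPM in control livers 1 to 4 and 5.66, 3.92, 4.26 and 4.37 CPM in Smo-KO livers 1 to 4. All Smo-KO livers lay below all controls, at 54.3% of the control mean, with a log2 fold change of -0.88 (SE 0.16, adjusted p = 0.0957 by edgeR's quasi-likelihood test). Smo-KO 1 had the highest level of its group. The counts cover the whole gene and not the floxed part alone.

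At an unadjusted p under 0.05, 928 of the 12977 genes tested were lower (7.15%) and 869 were higher (6.7%) in Smo-KO livers. Genes at an adjusted p under 0.05 made up 0% by edgeR. DESeq2, run on the same counts, called 167, and edgeR without Smo-KO 1 called 78. In 563 genes (4.34%) all Smo-KO livers lay below all controls, and in 393 (3.03%) all lay above. These shares are the background against which the counts of members are set.

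Of the 14 S-phase genes, 0 had an unadjusted p under 0.05 in either direction, and in 0 did the groups stand apart. Their median log2 fold change was 0.095, from -0.18 for Ccne2 to 0.26 for Mcm5, while the median of all tested genes was -0.00084. The S-phase median was 0.029 without Smo-KO 3 and 0.19 without Smo-KO 1. Their summed level was 309, 279, 295 and 350 CPM in control livers 1 to 4 and 262, 340, 390 and 340 CPM in Smo-KO livers 1 to 4, a mean of 308 ± 30.7 against 333 ± 52.6 CPM (SD, n = 4 each). Smo-KO livers held both the lowest and the highest sum. Smo-KO 3 was the highest liver for 8 of the 14 genes, and Smo-KO 1 the lowest for 8 of the 14. The groups overlapped for every one of these genes. Without Smo-KO 1, 3 of them (Mcm4, Mcm5 and Mcm7) were higher at an unadjusted p under 0.05, and without control 4 this held for 1 (Ccne1).

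**Figure D2:**
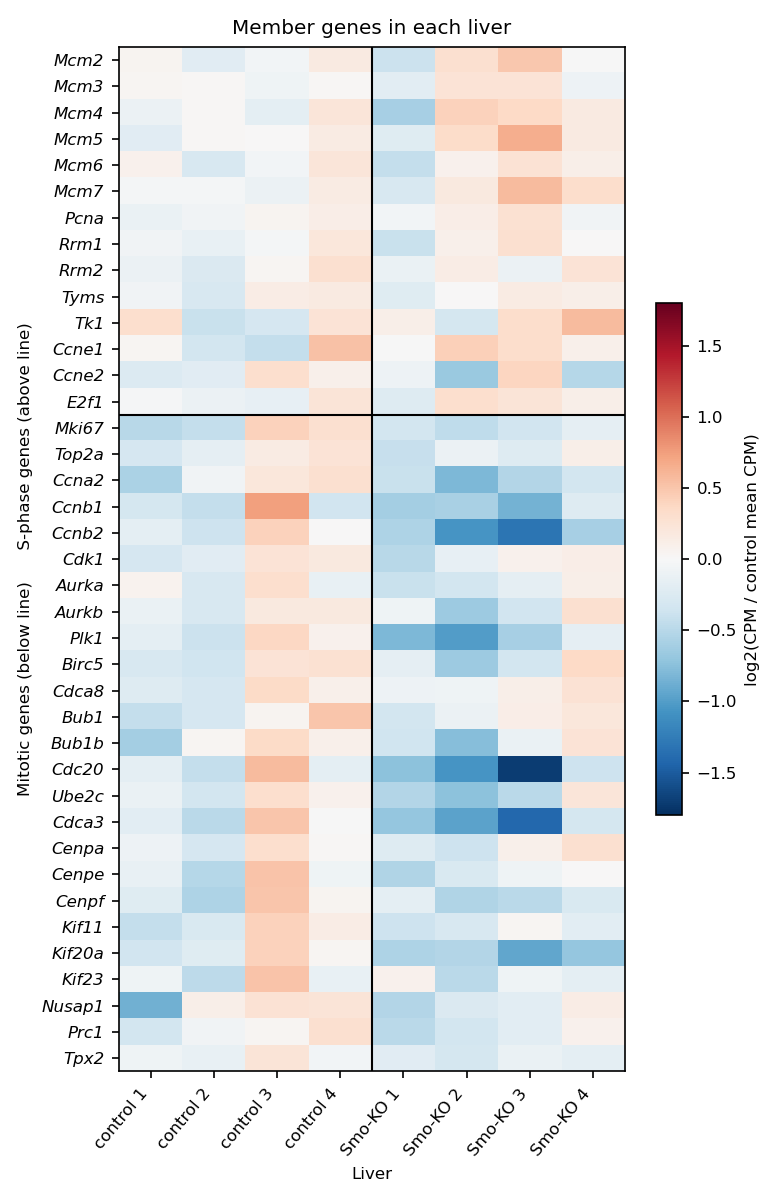
Level of each of the 39 genes in each of the 8 livers, as log2 of its CPM over the mean of the control livers (red higher, blue lower), S-phase genes above the horizontal line and mitotic genes below it. Control 3 is the reddest column of the mitotic genes, where it is the highest liver for 19 of 25, and Smo-KO 3 that of the S-phase genes.

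The 6 MCM proteins form the ring-shaped helicase that is loaded at replication origins and opens the DNA, and all 6 genes had a positive fold change with all livers. Mcm2 turned to -0.0086 without Smo-KO 3, and Mcm6 to -0.066 without Smo-KO 3, -0.059 without control 2 and -0.0088 without Smo-KO 4. Mcm5 had the largest, with 17.3, 20.4, 20.1 and 22.2 CPM in control livers and 17.2, 25.3, 31.7 and 22.5 CPM in Smo-KO livers (log2 fold change 0.26, SE 0.16, adjusted p = 0.493 by edgeR; exact permutation test, two-sided p = 0.257). Smo-KO 1 lay at the level of the lowest control, and the other 3 Smo-KO livers lay above all controls. Mcm7 stood at 35.3, 35.4, 33.6 and 40.0 CPM in control and 29.7, 40.9, 53.5 and 45.0 CPM in Smo-KO livers (0.22, SE 0.15, adjusted p = 0.528 by edgeR), with the same order of livers at both ends of the Smo-KO group. Without Smo-KO 3 the fold changes of Mcm5 and Mcm7 were 0.11 and 0.092, and without Smo-KO 1 they were 0.40 and 0.37. Mcm2 had 22.1, 18.6, 20.7 and 24.0 CPM in control and 16.4, 26.1, 29.8 and 21.3 CPM in Smo-KO livers, and Mcm6 had 51.4, 40.2, 47.2 and 56.7 against 36.2, 51.4, 58.3 and 52.6 CPM. In all 6 genes Smo-KO 1 was the lowest Smo-KO liver. Mcm3 and Mcm4 had fold changes of 0.062 and 0.13.

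Pcna encodes the sliding clamp that holds the polymerases on DNA. It was the S-phase gene with the highest level per length, 25.6 RPKM (CPM per kilobase of the longest GENCODE transcript) over all livers, and Ccne2 had the lowest, 0.381 RPKM. Pcna stood at 34.9, 36.2, 39.0 and 41.3 CPM in control and 36.5, 41.3, 45.7 and 36.2 CPM in Smo-KO livers (log2 fold change 0.074, SE 0.10). The groups overlapped almost wholly.

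Nucleotides for replication come from ribonucleotide reductase (Rrm1 and its S-phase subunit Rrm2), thymidylate synthase (Tyms) and the salvage enzyme thymidine kinase 1 (Tk1). Rrm2 had 10.6, 9.53, 11.7 and 13.9 CPM in control and 10.5, 12.5, 10.6 and 13.6 CPM in Smo-KO livers, with a log2 fold change of 0.043 (SE 0.15). Rrm1 and Tyms had fold changes of 0.012 and 0.013 (SE 0.14 and 0.13). Tk1 varied most of the 4 within groups, at 35.1, 21.6, 23.0 and 33.7 CPM in control and 30.6, 22.8, 35.2 and 42.2 CPM in Smo-KO livers (0.21, SE 0.19, adjusted p = 0.678 by edgeR; 0.058 without Smo-KO 4 and 0.35 without Smo-KO 2). Smo-KO 2 was low for Tk1 but high for most MCM genes, so the S-phase genes did not order the livers in one way.

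Cyclin E, encoded by Ccne1 and Ccne2, activates the kinase that starts S phase, and E2F1 is an activating E2F. Ccne1 had 7.36, 5.76, 5.36 and 10.4 CPM in control and 7.21, 9.70, 9.01 and 7.67 CPM in Smo-KO livers (log2 fold change 0.21, SE 0.21), and control 4 was the highest liver. Ccne2 was near 1 CPM in all livers, with 1.02, 1.05, 1.49 and 1.28 in control and 1.13, 0.763, 1.58 and 0.852 CPM in Smo-KO livers, where its lowest count was 7 reads. Its log2 fold change of -0.18 had an SE of 0.31, the widest of the S-phase genes. E2f1 had 11.6, 10.9, 10.5 and 13.7 CPM in control and 9.99, 14.4, 13.8 and 12.6 CPM in Smo-KO livers (0.12, SE 0.15).

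**Figure D3:**
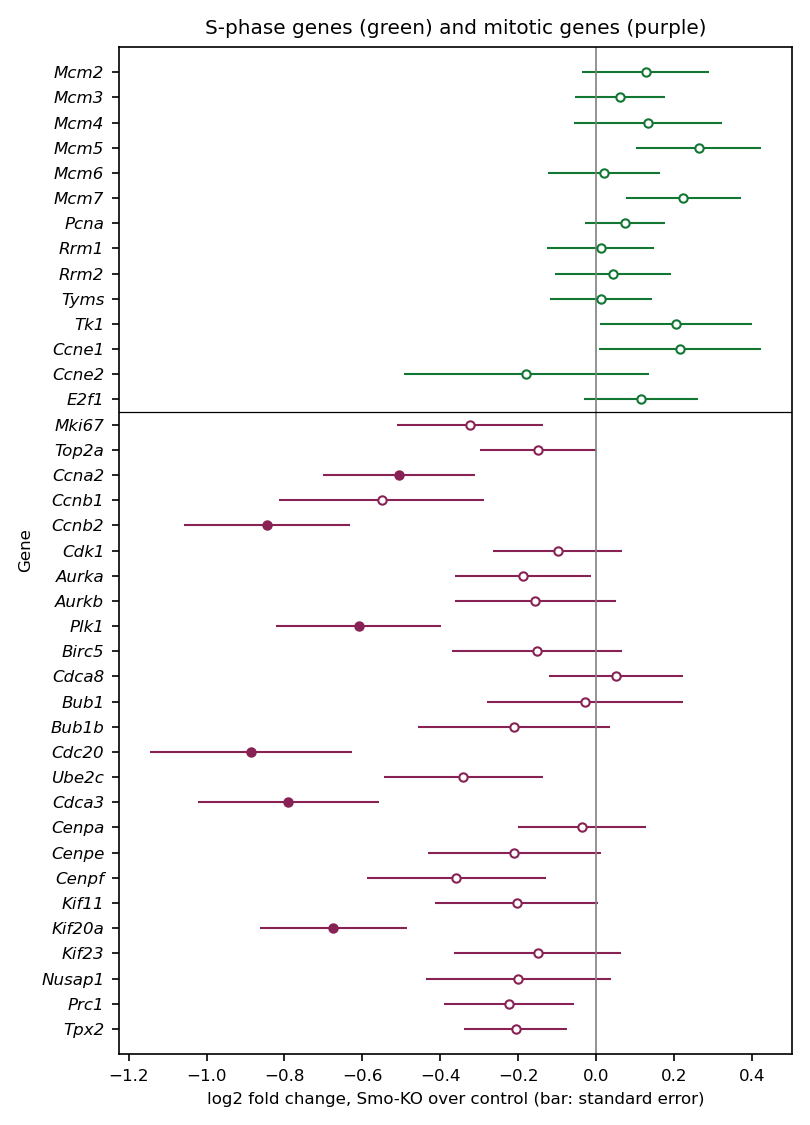
The log2 fold change of each gene, Smo-KO over control, with bars of 1 standard error from edgeR, for S-phase genes (green) and mitotic genes (purple); filled points have an unadjusted p under 0.05. The 6 filled points, all mitotic, lie between -0.89 and -0.51, and the S-phase points lie between -0.18 and 0.26.

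The mitotic genes leaned the other way. Of the 25, 6 were lower at an unadjusted p under 0.05 (24.0%, against the background of 7.15%) and 0 were higher. In 2 of them (8.0%, against 4.34%) all Smo-KO livers lay below all controls. Their median log2 fold change was -0.21, from -0.89 for Cdc20 to 0.052 for Cdca8. The lowest adjusted p was 0.152, for Ccnb2, by edgeR's quasi-likelihood test with Benjamini-Hochberg adjustment over all tested genes, so none passed. With DESeq2, Ccnb2 passed (adjusted p = 0.0322), and it was the 1 member that did.

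The summed level of the mitotic genes was 231, 226, 358 and 300.1 CPM in control livers 1 to 4 and 210, 196, 212 and 271 CPM in Smo-KO livers 1 to 4, a mean of 279 ± 62.5 against 222 ± 33.0 CPM (SD, n = 4 each). Smo-KO livers 1, 2 and 3 lay below all controls, and Smo-KO 4 lay between the controls. Control 3 was the highest liver for 19 of the 25 genes. Without it, 4 of the 6 genes kept an unadjusted p under 0.05 (Ccnb2, Kif20a, Cdc20 and Cdca3), Plk1 and Ccna2 lay at unadjusted p = 0.0526 and 0.0654 by edgeR, and the median log2 fold change of the 25 genes was -0.099.

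Set against the S-phase genes of the same liver, the mitotic sum was 0.748, 0.811, 1.21 and 0.856 times the S-phase sum in control livers 1 to 4 and 0.799, 0.577, 0.545 and 0.796 times in Smo-KO livers 1 to 4. Smo-KO 2 and Smo-KO 3 were the 2 lowest livers and control 3 the highest, while Smo-KO 1 and Smo-KO 4 lay among the other controls. Smo-KO 3 thus had the highest S-phase sum of all livers with a mitotic sum below every control.

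**Figure D4:**
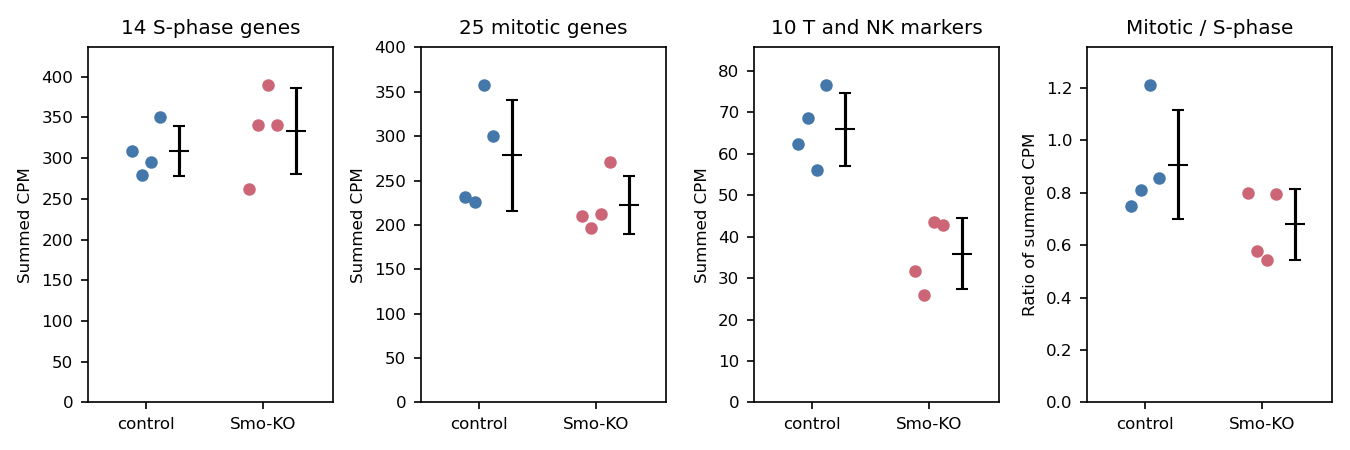
Summed CPM in each liver (points) with group mean and SD (bars, n = 4 each) for the S-phase genes, the mitotic genes and the T and NK cell markers, and the ratio of the mitotic to the S-phase sum. Control 3 stands highest among the mitotic sums at 358 CPM, and the T and NK sums of the groups do not overlap.

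Entry into mitosis depends on CDK1 with cyclins A and B. Ccnb2, the gene of cyclin B2 (chromosome 9, GRCm38, 70407692 to 70421547, minus strand), had 8.84, 7.75, 13.4 and 10.1 CPM in control and 6.80, 4.79, 4.02 and 6.60 CPM in Smo-KO livers. All Smo-KO livers lay below all controls (log2 fold change -0.84, SE 0.21, unadjusted p = 0.00166, adjusted p = 0.152 by edgeR; exact permutation test, two-sided p = 0.0286, the smallest that 4 against 4 can give). Ccna2 (cyclin A2) had 5.78, 8.17, 9.83 and 10.5 CPM in control and 6.49, 4.90, 5.97 and 6.81 CPM in Smo-KO livers (-0.51, SE 0.20, adjusted p = 0.286 by edgeR). Control 1 was low for Ccna2 and lay within the Smo-KO group. Its unadjusted p by edgeR was 0.0857 without control 4 and 0.0681 without Smo-KO 2. Ccnb1 (cyclin B1) had 7.02, 6.49, 14.7 and 6.92 CPM in control and 5.77, 5.88, 4.87 and 7.45 CPM in Smo-KO livers (-0.55, SE 0.26, adjusted p = 0.374 by edgeR). Control 3 alone held a level far above the other controls, and without it the log2 fold change was -0.18. The unadjusted p of Ccnb1 was 0.0445 with DESeq2. By edgeR it was 0.0340 without a filter on low counts, 0.0410 without control 1 and 0.0290 without control 2. It was also under 0.05 by edgeR without control 4 or without Smo-KO 4. The lowest adjusted p of Ccnb1 under any alternative was 0.317, by edgeR without control 1. Cdk1, the kinase subunit, had 12.8, 13.7, 18.8 and 17.9 CPM in control and 11.1, 14.3, 16.7 and 17.1 CPM in Smo-KO livers (-0.099, SE 0.17), and its groups overlapped, with Smo-KO 1 below all controls and controls 3 and 4 above all Smo-KO livers.

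**Figure D5:**
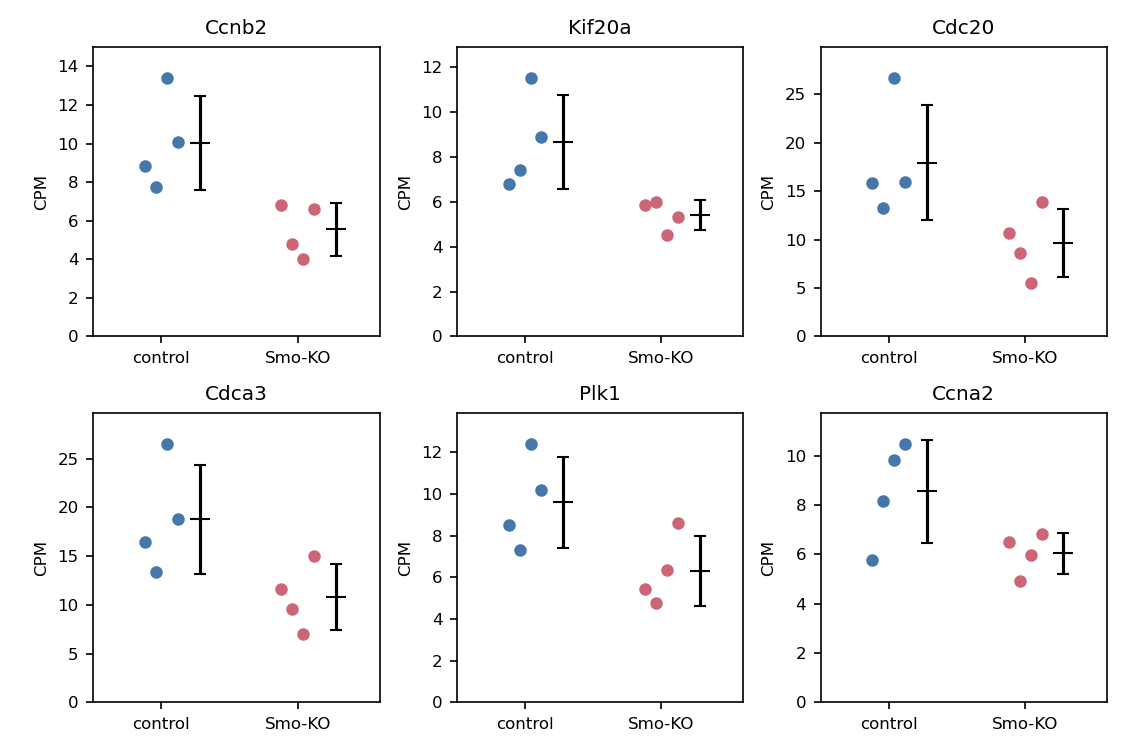
CPM in each liver (points) with group mean and SD (bars, n = 4 each) for the 6 mitotic genes with an unadjusted p under 0.05. Ccnb2 and Kif20a do not overlap between groups, and in 5 of the 6 panels, all but Ccna2, control 3 is the highest liver.

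The anaphase-promoting complex ends mitosis by marking cyclin B and securin for destruction. Its activator Cdc20 (chromosome 4, 118432901 to 118437352, minus strand) was the mitotic gene with the highest level per length, 7.70 RPKM over all livers. It had 15.9, 13.3, 26.7 and 15.9 CPM in control and 10.7, 8.61, 5.48 and 13.8 CPM in Smo-KO livers, where Smo-KO 4 alone reached above the lowest control (log2 fold change -0.89, SE 0.26, adjusted p = 0.190 by edgeR; exact permutation test, two-sided p = 0.0571). Cdca3, a factor in the breakdown of the mitosis inhibitor Wee1, had 16.4, 13.4, 26.5 and 18.8 CPM in control and 11.6, 9.59, 7.07 and 15.0 CPM in Smo-KO livers (-0.79, SE 0.23, adjusted p = 0.190 by edgeR; exact permutation test, two-sided p = 0.0571). Both genes had the same order of Smo-KO livers, from Smo-KO 3 as the lowest to Smo-KO 4. The ubiquitin-conjugating enzyme of the complex, Ube2c, had a log2 fold change of -0.34 (SE 0.20). Bub1 and Bub1b, of the checkpoint that holds Cdc20 back until chromosomes are attached, had fold changes of -0.029 and -0.21 and SEs of 0.25 each.

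Plk1, a kinase of mitotic entry and spindle assembly, had 8.50, 7.33, 12.4 and 10.2 CPM in control and 5.46, 4.79, 6.33 and 8.62 CPM in Smo-KO livers (log2 fold change -0.61, SE 0.21, adjusted p = 0.247 by edgeR). Smo-KO 4 lay within the control group, and the other 3 lay below it. The aurora kinases Aurka and Aurkb had fold changes of -0.19 and -0.16 (SE 0.17 and 0.21). Birc5 and Cdca8, which act with Aurkb in the chromosomal passenger complex, had -0.15 and 0.052 (SE 0.22 and 0.17), so none of the 3 members of that complex had an unadjusted p under 0.05.

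Among motors and spindle proteins, Kif20a, a kinesin of cytokinesis, had 6.80, 7.44, 11.5 and 8.89 CPM in control and 5.87, 5.99, 4.51 and 5.32 CPM in Smo-KO livers. All Smo-KO livers lay below all controls (log2 fold change -0.67, SE 0.19, unadjusted p = 0.00360, adjusted p = 0.176 by edgeR; exact permutation test, two-sided p = 0.0286). The other 5 genes of this group were Kif11, the motor that parts the spindle poles, Kif23 and Prc1 of the central spindle, and the spindle assembly factors Tpx2 and Nusap1. Their fold changes lay between -0.22 and -0.15. The centromere genes Cenpa, Cenpe and Cenpf had -0.036, -0.21 and -0.36. Cenpf, the mitotic gene with the lowest level per length (0.380 RPKM), had 4.08, 3.25, 6.75 and 4.94 CPM in control and 4.22, 3.27, 3.41 and 3.94 CPM in Smo-KO livers.

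Mki67, which encodes the proliferation antigen Ki-67 of the chromosome surface, had 27.5, 29.0, 51.9 and 47.8 CPM in control and 31.1, 28.3, 30.7 and 34.9 CPM in Smo-KO livers (log2 fold change -0.32, SE 0.19, adjusted p = 0.466 by edgeR). The control livers fell apart into a low pair (1 and 2) and a high pair (3 and 4), and the Smo-KO livers lay close to the low pair. Top2a, the topoisomerase that disentangles sister chromatids, had 14.8, 16.4, 20.2 and 21.8 CPM in control and 13.8, 17.1, 15.6 and 19.8 CPM in Smo-KO livers (-0.15, SE 0.15). Both genes are in common use as markers of cycling cells, and neither had an unadjusted p under 0.05 by edgeR with all livers. For Mki67 it was 0.0202 without control 1 and 0.0308 without control 2, where the log2 fold change was -0.46 and -0.44, while the fold change was -0.15 without control 3 and -0.21 without control 4.

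Of the 6 mitotic genes picked by an unadjusted p under 0.05 in these data, 4 had a promoter in the table (Ccnb2, Cdc20, Cdca3 and Plk1). A CHR and a CCAAT box were found at all 4 of them and at 13 of the 17 other mitotic genes with a promoter (76.5%). So few genes cannot tell these shares apart. The CHR of Cdca3 and that of Plk1 lie after the RefSeq start, within the searched window. Some members share exon bases with a gene on the other strand. The share of their exon bases is 29.3% for Kif20a (with Cdc23), 22.8% for Ube2c (Tnnc2), 17.4% for Ccne2 (Ints8), 12.5% for Ccna2 (Exosc9), 11.1% for Prc1 (Rccd1), 7.25% for Mcm7 (Ap4m1), 7.09% for Plk1 (Gm44985), 4.48% for Cdca8 (9930104L06Rik), 4.24% for Nusap1 (Oip5), 2.84% for Cdc20 (Elovl1) and 1.6% for Tk1 (Afmid). Among the partners with the largest shares, Cdc23 had a mean of 143 reads per liver, Tnnc2 0, Ints8 135, Exosc9 88.5 and Rccd1 117. Elovl1 had a mean of 1172 reads per liver and Afmid 519 reads. Among the CDK inhibitors and the replication, mitotic and G1 genes named beside the 39, the share is 30.65% for Cdkn1c (Gm44732), 7.68% for Cdkn1a (AC167363.2), 6.93% for Orc6 (Vps35, with a mean of 1034 reads), 5.77% for Ckap2l (Gm14024) and 4.11% for Ccnd3 (Bysl), and under 1% for Pole and Cdk2. Whether the counting used strand is not given in the sources used here, so the levels of these genes are uncertain to that extent.

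Further genes of the same programs were drawn from lists that were chosen with earlier results of these data known. Of 51 other replication genes, 4 were higher at an unadjusted p under 0.05 (7.84%, against 6.7%) and 0 were lower, with a median log2 fold change of 0.094. In 2 of them, Gins1 and Cdt1 (3.92%, near the 3.03% of all tested genes), all Smo-KO livers lay above all controls. Gins1, a subunit of the replicative helicase, had 6.12, 5.97, 6.45 and 7.31 CPM in control and 7.52, 8.17, 10.5 and 10.3 CPM in Smo-KO livers, without overlap (0.49, SE 0.16, adjusted p = 0.226 by edgeR). Pole, the catalytic subunit of DNA polymerase epsilon, had 9.63, 6.81, 5.16 and 9.48 against 8.75, 10.6, 17.7 and 14.8 CPM (0.73, SE 0.24, adjusted p = 0.235 by edgeR). All Smo-KO livers but Smo-KO 1 lay above all controls for Pole. The licensing factors Cdt1 and Orc6 had log2 fold changes of 0.32 and 0.39 (SE 0.12 and 0.17, adjusted p = 0.287 and 0.342 by edgeR). The unadjusted p of Cdt1 was 0.0986 without Smo-KO 3 and 0.0554 without control 3, and that of Orc6 was over 0.05 without control 1, control 2, Smo-KO 2, Smo-KO 3 or Smo-KO 4, reaching 0.142.

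Of 59 tested genes on a list of 60 other mitotic genes, 9 were lower at an unadjusted p under 0.05 (15.3%, against 7.15%) and 1 was higher (1.69%, against 6.7%). The median log2 fold change was -0.16, and in 5 genes (8.47%, against 4.34%) all Smo-KO livers lay below all controls. The 4 lower genes with the smallest p were Kif2c, a microtubule-depolymerizing kinesin (-0.66, SE 0.21), Lmnb1, which encodes lamin B1 of the nuclear envelope (-0.38, SE 0.13), Ckap2l, a spindle protein (-0.55, SE 0.19), and Iqgap3 (-0.60, SE 0.22). Their adjusted p lay between 0.217 and 0.270 by edgeR. The unadjusted p was 0.0583 for Ckap2l and 0.0913 for Iqgap3 without control 3, and 0.0555 for Iqgap3 without Smo-KO 2. Lmnb1 had 11.8, 13.2, 13.8 and 13.2 CPM in control and 9.47, 10.1, 8.77 and 11.5 CPM in Smo-KO livers, and the groups did not overlap. The gene that was higher was Wee1, the kinase that inhibits CDK1 and so delays mitosis. Wee1 had 18.6, 15.0, 12.4 and 20.3 CPM in control and 19.6, 34.0, 32.6 and 26.0 CPM in Smo-KO livers (0.76, SE 0.19, adjusted p = 0.146 by edgeR; 0.0175 by DESeq2). Smo-KO 1 lay below the highest control, and the other 3 Smo-KO livers lay above all controls.

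Among 9 G1 cyclins and kinases, 1 was higher and 1 lower at an unadjusted p under 0.05 (11.1% each, against 6.7% and 7.15%). Cdk2, the partner of cyclin E, was higher (log2 fold change 0.33, SE 0.12, adjusted p = 0.247 by edgeR). Ccnd3, a D-type cyclin, was lower, with 41.7, 37.2, 34.9 and 37.3 CPM in control and 32.5, 31.0, 32.0 and 32.9 CPM in Smo-KO livers (-0.23, SE 0.089, adjusted p = 0.283 by edgeR). All its Smo-KO livers lay below all controls, as in 1 of the 9 genes (11.1%) and 4.34% of all tested genes. The unadjusted p of Ccnd3 by edgeR was 0.0596 without control 1 and 0.0524 without Smo-KO 2. Of 18 tested genes on a list of 19 regulators (the Rb family, E2F factors and their partners, MuvB subunits, B-Myb, FoxM1 and Myc), 1 was higher at an unadjusted p under 0.05 (5.56%, near the 6.7% of all tested genes), the E2F partner Tfdp2 (0.37, SE 0.15, adjusted p = 0.296 by edgeR). Without control 1, control 3, Smo-KO 2 or Smo-KO 4 its unadjusted p lay between 0.0594 and 0.0950. Foxm1 and Mybl2, the activators of the mitotic program, had -0.16 (SE 0.17) and -0.24 (SE 0.29). E2f4 was the 1 regulator whose Smo-KO livers all lay below all controls (5.56%, near the 4.34% of all tested genes). E2f7 was below the filter.

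CDK inhibitors halt the cycle, and several of them mark senescent cells. None of the 7 had an unadjusted p under 0.05 by edgeR. Cdkn1a (p21) had 47.2, 79.4, 74.4 and 59.2 CPM in control and 74.6, 63.7, 60.5 and 47.1 CPM in Smo-KO livers, with a log2 fold change of -0.082 (SE 0.17). Both groups spanned nearly the same range. Cdkn2a, which encodes p16, had a log2 fold change of -0.18 (SE 0.25), Cdkn2b 0.38 (SE 0.39), Cdkn2c -0.056 (SE 0.11), Cdkn2d -0.11 (SE 0.19) and Cdkn1c 0.28 (SE 0.19). Counts were low for Cdkn2a, between 13 and 26 reads per liver, and for Cdkn2b, between 5 and 18 reads. With 1 liver left out, Cdkn2a lay between -0.32 (without control 2) and -0.039 (without control 4), Cdkn2b between 0.12 (without Smo-KO 4) and 0.66 (without control 4) and Cdkn1c between 0.14 (without Smo-KO 4) and 0.39 (without Smo-KO 3). Cdkn1b (p27) had 34.1, 33.6, 34.4 and 33.6 CPM in control and 34.5, 37.1, 39.5 and 34.8 CPM in Smo-KO livers (0.10, SE 0.086, unadjusted p = 0.251 by edgeR). Its Smo-KO livers all lay above all controls by a small margin, which held for 1 of the 7 inhibitors (14.3%) and for 3.03% of all tested genes.

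Markers of other liver cells were counted in the same way, and none had an adjusted p under 0.05 by edgeR. T and NK cell markers were lower in Smo-KO livers. Of 10, 9 were tested, all 9 had a negative fold change, 8 had an unadjusted p under 0.05 (against 7.15% of all tested genes) and in 5 the groups did not overlap (55.6%, against 4.34%), with a median log2 fold change of -0.87. Their sum was 62.3, 68.6, 56.0 and 76.6 CPM in control and 31.6, 25.8, 43.5 and 42.7 CPM in Smo-KO livers. Nkg7, the most abundant, stood at 14.4 ± 3.09 against 7.58 ± 2.44 CPM (SD, n = 4 each), and the NK marker Klrb1c was near 0 in all livers. All 4 sums of the Smo-KO group lay below those of the controls, whereas control 3, the highest liver for most mitotic genes, had the lowest T and NK sum of the controls. The part of these markers in the mitotic levels was not tested.

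The summed B and plasma cell markers were 13.3, 12.1, 37.9 and 25.4 CPM in control and 13.1, 9.04, 14.6 and 11.9 CPM in Smo-KO livers. Jchain, their most abundant gene and a product of plasma cells, had 3.29, 4.29, 24.6 and 14.1 CPM in control and 3.40, 1.63, 3.05 and 2.56 CPM in Smo-KO livers. It was high in control 3 and control 4, which also had the highest mitotic sums, and the part of these cells in those sums was not tested. Of 6 B and plasma cell markers, 1 of the 5 tested (Jchain) was lower at an unadjusted p under 0.05, against 7.15% of all tested genes. Of 10 macrophage markers, 2 were higher at an unadjusted p under 0.05 (Trem2 and Lyz2, the most abundant), against 6.7% of all tested genes, and 0 lower. Trem2 stood at 33.6 ± 2.94 against 56.5 ± 9.68 CPM (SD, n = 4 each). Of 6 endothelial markers all had a negative fold change and 1 (Pecam1) had an unadjusted p under 0.05 (16.7%, against 7.15%). Their sum, led by Clec4g, was 172, 163, 196 and 200 CPM in control and 210, 99.5, 130 and 167 CPM in Smo-KO livers, so the Smo-KO group held both the highest and the lowest liver.

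Hepatocyte markers, led by Alb, summed to 30788 ± 2669 CPM in control and 30575 ± 702 CPM in Smo-KO livers (SD, n = 4 each), and 1 of 8, Cps1, was lower at an unadjusted p under 0.05 (12.5%, against 7.15%). Of 8 stellate cell markers, led by Col3a1, 1 was lower, Col1a1 (12.5%). None of the tested neutrophil (3 of 6, led by Csf3r), cholangiocyte (5 of 6, led by Sox9) or erythroid markers (1 of 6, Alas2) had an unadjusted p under 0.05. The neutrophil marker Ly6g and the 4 globin genes had 0 reads in all livers, whereas Alas2 had between 750 and 1214 reads per liver. Whether library preparation or counting left the globin genes out was not tested, so their 0 is not read as absence of the RNA.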

How the data were processed

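Livers of 4 control and 4 Smo-KO mice were sequenced by bulk RNA-Seq. The authors deposited whole-number read counts per gene symbol, without normalization, 1 list per liver. Their processing notes name fastp, STAR 2.7.5, featureCounts 2.0.1 and the build GRCm38, while the lists close with rows of the kind htseq-count gives. The annotation and strand setting are not given in the sources used here. Reads on no feature (between 7.56% and 9.68% per liver) and on more than 1 gene (between 2.45% and 2.61%) entered neither library sizes nor tests. Without molecular identifiers, depth describes counting error only.

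The counts of all symbols were fitted with edgeR 4.0.16 under R 4.3.3, after filterByExpr and TMM scaling, by glmQLFit and glmQLFTest with no term but genotype, and p was adjusted by Benjamini-Hochberg over the 12977 genes left. The procedure was tested on simulated data. Standard errors are those implied by the F statistic. Single genes were also compared by an exact permutation test over the 70 assignments of livers, two-sided, whose smallest p is 0.0286. Each liver is 1 mouse, and the libraries of a group were not copies of each other (chi-square per degree of freedom between 7.76 and 17.5). RPKM used the longest GENCODE M21 transcript. Alternatives were other size factors, DESeq2 1.42.0, other filters, the replicate number as a block and each liver left out in turn. Figures were drawn with matplotlib 3.10.9.

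The 39 members, the gene lists and the markers were chosen with earlier results of these data known. Values in every liver are given for 12 preset members, for the 4 of each class with the smallest unadjusted p and for those with the highest and lowest level per length. In other lists, up to 4 genes per direction at an unadjusted p under 0.05 are named, with all CDK inhibitors and the most abundant marker of each list. Further genes (among them Plk1, Foxm1, Mybl2, Mcm6's promoter and single markers) were named after values were seen. Promoter sequences are from RefSeq, for the 2 members per class with the most motif matches (without Mcm7, which is not shown) and 3 added later. Annotated exon bases were left out of them beyond a motif match.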

Additional observations from a re-analysis of the deposited data

Results flagged for a closer look

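Within 122 groups of 4 livers examined for 1 liver far from the others, 2 were marked, and about 1 in 20 such groups (6.1 here) is marked by chance. Ccnb1, cyclin B1, stood at 14.7 CPM in control 3, against 6.49 to 7.02 CPM in the other controls. Iqgap3 stood at 8.24 CPM in control 3, against 4.53 to 5.04 CPM in the other controls. Both values come from control 3, the highest liver for 19 of the 25 mitotic genes. Without control 3 the log2 fold change was -0.18 for Ccnb1 and -0.36 for Iqgap3.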

How the results depend on the processing

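Calls over all genes (adjusted p under 0.05), 0 by edgeR, numbered 167 with DESeq2, 61 without a filter on low counts and 8 with the replicate number as a block, and lay between 0 and 78 when 1 liver was left out (78 without Smo-KO 1, 5 without control 1, 4 without Smo-KO 3). The cause was not tested. The number of S-phase genes higher at an unadjusted p under 0.05 was 0 in the fit with all livers and lay between 0 and 3 when 1 liver was left out, 1 without control 4 (Ccne1) and 3 without Smo-KO 1 (Mcm4, Mcm5 and Mcm7). The number of mitotic genes lower at an unadjusted p under 0.05 lay between 4 (without control 3) and 9 (without control 2), and was 7 with DESeq2. Ccnb2, Kif20a, Cdc20 and Cdca3 were among them under every alternative run. The median log2 fold change of the S-phase genes lay between 0.029 and 0.19 and that of the mitotic genes between -0.34 and -0.099 when 1 liver was left out.

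Alternatives were computed for 40 named genes. Of these, 7 turned sign, each when 1 liver was left out and under no other alternative. Mcm2 then lay between -0.0086 and 0.27, Mcm6 between -0.066 and 0.15, Rrm2 between -0.033 and 0.16, Cdk1 between -0.19 and 0.024, Cdkn1a between -0.21 and 0.030, Cdkn2c between -0.13 and 0.0052 and Cdkn2d between -0.20 and 0.028. Of the genes that kept their sign, Ccne1 lay between 0.098 (without control 3) and 0.45 (without control 4), Ccne2 between -0.40 (without Smo-KO 3) and -0.047 (without Smo-KO 2), Pcna between 0.0036 (without Smo-KO 3) and 0.12, E2f1 between 0.048 (without Smo-KO 2) and 0.22, Top2a between -0.25 and -0.049 (without control 4), Cdkn1b between 0.064 (without Smo-KO 3) and 0.14, Cdt1 between 0.20 (without Smo-KO 3) and 0.39 and Iqgap3 between -0.69 and -0.36 (without control 3). Adjusted p fell under 0.05 for Smo (with DESeq2, 0.00646, without a filter, 0.0385, and without Smo-KO 1, 0.0265), for Ccnb2 (with DESeq2, 0.0322) and for Wee1 (with DESeq2, 0.0175, and without Smo-KO 1, 0.0426). Other size factors changed no call of these genes. The stricter filter (10 counts or more in each liver) left out Ccne2 and Cdkn2b and changed no call of the others.

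The libraries share replicate numbers across groups. The deviations of same-numbered livers correlated at r = 0.104, 0.187, 0.061 and 0.113, controls 2, 3 and 4 correlated best with the Smo-KO liver of their number and control 1 with Smo-KO 4, and nothing in the labels ties the numbers to a litter or day, so they were taken as numbers only. With the replicate block, 7 mitotic genes were lower at an unadjusted p under 0.05, Ube2c being added. The lowest count behind a member was 7 reads (Ccne2), and the lowest among the mitotic genes was 17 reads.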
